A study of Mus musculus with 48 samples.

Results

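Hippocampal microglia of mouse pups reared under control conditions (CTL) were compared with those of pups reared under UPS across a whole glial gene panel. The members are all 478 genes of the deposited table for CTL and UPS, out of the 478 genes measured in the series, and the rule takes the whole table and uses no measured value. The animals were Balbc/Byj mice of postnatal day 17, and the labels name no transgene or deletion in any group. Each of CTL, UPS and a further rearing group, LB, held 16 animals, 8 of each sex, which came from 4 to 5 litters per rearing and sex. About 60000 microglia per animal were purified on a Percoll gradient and by flow sorting, lysed, and counted with the fluorescent barcodes of the nCounter assay, without amplification. There were 4 batches of 12 libraries, 48 in all, with rearing and sex balanced at 2 animals each per batch. The labels give CTL as control and the other groups by initials only.

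As background, LB (limited bedding) and UPS (unpredictable postnatal stress) are mouse models of early-life adversity. In the first the dam has too little nesting material, and in the second the litter also meets disturbances at unpredictable times. Microglia are the resident macrophages of the brain. In the young hippocampus they take up apoptotic cells and surplus synapses, sense damage and microbial products through pattern recognition receptors, and hold their tissue identity under TGF-beta and CSF1 receptor signalling.

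Only the authors' deposited tables of pairwise comparisons were analysed, which give for each gene a log2 ratio, a linear ratio and p-values with the sexes pooled and batch as a covariate. Library values were not analysed here, so a level per animal, an SD of each group and the depth of each library are unknown, and no value within a batch or a sex is given. The tables do not say which group is the numerator. Signs are therefore given as deposited, and turning them would turn every sign below together. The standard error of each ratio was recovered from its p-value, and all 95% intervals rest on it. Several animals came from the same litter, so the intervals are too narrow and the p-values too small if littermates resemble each other. In these sorted cells, fewer cells of a type and less RNA per cell cannot be told apart. The labelled cell type could not be checked by marker levels, because only ratios were used. All 10 defining microglial markers listed were measured, from P2ry12 to Aif1, and none passed the threshold between CTL and UPS.

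Promoters are shown for 3 genes past the threshold, chosen by p-value and sign, to give the sequence context of genes with opposite signs. Tlr7, which has the smallest p-value of the panel, is not among them. Mertk and Usp2 have the smallest p-values among genes with a positive ratio that match 1 promoter entry, and Tlr2 has the smallest p-value of the genes with a negative ratio. Each sequence is the 250 bases before the start site in RefSeq (GRCm38.p6), on the strand of the gene. The windows are chr2:128698665-128698914 (plus strand) for Mertk, chr9:44084670-44084919 (plus strand) for Usp2 and chr3:83841609-83841858 (minus strand) for Tlr2. Capitals mark the GC box GGGCGG on either strand, where the reverse strand reads CCGCCC.
Mertk: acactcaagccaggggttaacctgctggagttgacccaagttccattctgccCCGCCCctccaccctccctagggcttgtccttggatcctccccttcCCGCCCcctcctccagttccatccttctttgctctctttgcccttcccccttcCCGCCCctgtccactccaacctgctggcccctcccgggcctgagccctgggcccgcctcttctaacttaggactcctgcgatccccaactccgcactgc
Usp2: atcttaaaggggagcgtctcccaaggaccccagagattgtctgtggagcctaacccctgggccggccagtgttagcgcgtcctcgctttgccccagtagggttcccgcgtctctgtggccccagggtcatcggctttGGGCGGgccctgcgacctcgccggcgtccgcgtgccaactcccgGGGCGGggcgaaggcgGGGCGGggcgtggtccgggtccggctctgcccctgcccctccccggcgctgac
Tlr2: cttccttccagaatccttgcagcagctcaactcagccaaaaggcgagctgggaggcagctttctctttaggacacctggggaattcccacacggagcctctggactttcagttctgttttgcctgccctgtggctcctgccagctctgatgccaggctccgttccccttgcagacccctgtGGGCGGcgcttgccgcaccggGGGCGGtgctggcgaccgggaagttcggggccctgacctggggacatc
GC boxes, which Sp-family factors can bind, occurred 3 times in the Mertk window, 3 times in the Usp2 window and 2 times in the Tlr2 window. The GC content of these windows was 63.6%, 71.6% and 62.8%. Of the 23 promoters found for 16 of the genes past the threshold, 15 (65.2%) held a GC box, against 57.0% of the 461 promoters of 360 panel genes and 32.7% of all 32851 mouse promoters in the table. The letters GAGGAA, the core bound by the myeloid factor PU.1, were in none of the 3 windows on either strand. They were in 6 of the 23 promoters (26.1%), in 23.9% of the panel's and in 23.3% of all.

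The first question was how far the control and UPS transcript profiles differed. Of the 478 genes, 23 (4.81%) passed at an adjusted p below 0.05, with Benjamini-Hochberg adjustment of the authors' deposited p-values over all genes. A positive ratio was found for 17 of them (3.56% of the panel) and a negative ratio for 6 (1.26%). After centring all ratios on their median, 17 positive and 3 negative genes passed. Before adjustment 78 genes (16.3%) had a p below 0.05, 44 positive (9.21%) and 34 negative (7.11%), where 23.9 would be so in the absence of any difference. Below 0.001 there were 15 genes, against 0.478. The panel as a whole was balanced, with 233 positive and 245 negative ratios and a median log2 ratio of -0.0024.

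**Figure D1:**
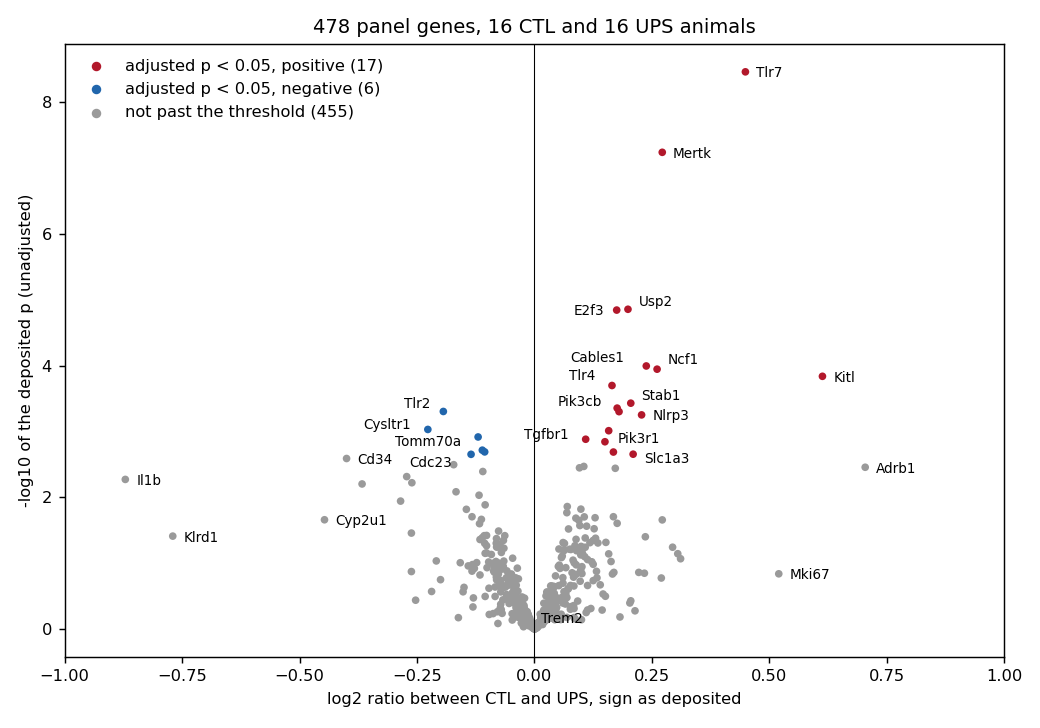
Each point is 1 of 478 genes, with the log2 ratio between 16 CTL and 16 UPS animals (sign as deposited) on the x axis and -log10 of the deposited unadjusted p on the y axis. Red and blue points passed at an adjusted p below 0.05, and Tlr7 and Mertk stand highest, while Il1b, Klrd1, Adrb1 and Mki67 lie far out on the x axis without passing.

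Differences in size were small. The median ratio of the panel was 1.04-fold in either direction and the 90th percentile 1.12-fold. Among the 23 genes past the threshold the size ran from 1.08-fold (Kcnk13) to 1.53-fold (Kitl), with a median of 1.13-fold. Set against the spread between animals that the recovered errors imply, these 23 ratios were 1.15 to 2.63 SDs (median 1.33), and the median over all 478 genes was 0.346 SDs. This measure follows the p-value by which the 23 genes were chosen, so their higher values come from that choice. The SD is what remains with batch as a covariate, and it is shared with the LB animals. The implied SD of an animal had a median of 0.14 on the log2 scale, or 1.10-fold. For 2 of the 23 genes, Tlr7 and Kitl, the whole 95% interval lay beyond 1.2-fold.

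Innate sensors of microbial products held genes past the threshold of both signs. Tlr7, which senses single-stranded RNA in endosomes, had a ratio of 1.37 (log2 0.45, interval 0.33 to 0.57) and an adjusted p of 1.64e-06 from the authors' deposited p. This was 2.63 times the implied SD between animals, the largest such value of the panel, in a measure that follows the p-value. Tlr4, the receptor of bacterial lipopolysaccharide, was also positive at 0.17 on the log2 scale per the authors' deposited table (interval 0.083 to 0.25, adjusted p = 0.0120). Tlr2, the receptor of bacterial lipoproteins whose promoter is shown above, was negative at -0.19 per the authors' deposited table (interval -0.30 to -0.090, adjusted p = 0.0199). The intervals of Tlr4 and Tlr2 do not overlap. The other 3 members measured stayed near 0, with log2 ratios per the authors' deposited table of -0.019 for Tlr3, the receptor of double-stranded RNA, 0.011 for the adaptor Ticam1 and -0.0062 for Cd14, a co-receptor of Tlr4. Thus 3 of 6 Toll-like receptors and adaptors passed, where 4.81% of the panel did, and the median of the 6 was 0.0023, beside -0.0024 for the panel.

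Of the inflammasome and interleukin-1 genes 1 passed. Nlrp3, an inflammasome sensor, had a log2 ratio of 0.23 per the authors' deposited table (interval 0.10 to 0.35, adjusted p = 0.0206). Il1b, the cytokine that inflammasomes process, had the most negative ratio of the panel per the authors' deposited table, -0.87 (0.547-fold, interval 0.361-fold to 0.827-fold), and did not pass (adjusted p = 0.0798). Its implied SD between animals was 0.84 on the log2 scale, against a panel median of 0.14. Il18, another inflammasome product, had 0.13 (interval 0.013 to 0.24) per the authors' deposited table, Il1a -0.084 and Nlrp1b, a further inflammasome sensor, -0.054, and none of them passed. The list thus had 1 of 5 genes past the threshold and a median of -0.054. Tnf (0.31, interval -0.028 to 0.64) and the kinase gene Tbk1 (-0.019), the 2 measured genes of the TNF and NF-kB list, did not pass per the authors' deposited table.

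No chemokine, interferon or antigen presentation gene passed. Of 6 chemokine and chemokine receptor genes 5 had a positive ratio per the authors' deposited table, with Ccl12, a chemokine that attracts monocytes, at 0.22, but the intervals were wide and 2 of the 6 lay within 1.2-fold. The list median was 0.081. Of 8 interferon receptor and response genes 4 were positive, with Ifit3, an interferon-induced gene, at 0.21 (interval -0.46 to 0.89) and the receptor gene Ifnar1 at 0.054 (interval -0.015 to 0.12) per the authors' deposited table. The median of the 8 was 0.020. Of 7 antigen presentation genes 4 were positive (median 0.033), among them the class I gene H2-D1 at 0.23 per the authors' deposited table, while Ctss, a protease of the class II pathway, was at -0.12 (p = 0.0437, adjusted p = 0.298).

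Genes of engulfment were led by Mertk, a receptor tyrosine kinase with which phagocytes recognise apoptotic cells. Its ratio was 1.21 (log2 0.27, interval 0.19 to 0.36), or 2.33 implied SDs between animals, with an adjusted p of 1.37e-05 from the authors' deposited p. Stab1, a scavenger receptor that binds phosphatidylserine, had a log2 ratio of 0.21 per the authors' deposited table (interval 0.098 to 0.31, adjusted p = 0.0197). Gas6 and Pros1, the bridging ligands of Mertk, did not pass and were at 0.11 (interval -0.018 to 0.24) and -0.013 per the authors' deposited table. Axl, the related receptor, was at 0.069 with an interval from -0.25 to 0.39 per the authors' deposited table. Elmo1, which links engulfment receptors to Rac, was at 0.062 (interval -0.0039 to 0.13). In all, 2 of 8 engulfment genes passed (4.81% of the panel) and 6 of 8 were positive, with a median of 0.065. Mertk was also the 1 measured gene of the glucocorticoid-responsive list.

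Among opsonin and oxidase genes 1 passed. Ncf1, which encodes p47phox of the oxidase that makes superoxide, had a log2 ratio of 0.26 per the authors' deposited table (interval 0.14 to 0.38, adjusted p = 0.00900). Sirpa, the receptor of the don't-eat-me ligand CD47, was at 0.097 and Cd47 itself at -0.070 per the authors' deposited table, and neither passed. Fcgr4 and Fcgr1, receptors of antibody, were at -0.21 (interval -0.45 to 0.036) and -0.0034. The 5 genes of this list had a median of -0.0034. All 3 measured C1q chains, which tag synapses and debris, had a positive ratio per the authors' deposited table. The value was 0.11 for C1qc (interval 0.037 to 0.17, adjusted p = 0.0597), 0.069 for C1qa (interval 0.013 to 0.12) and 0.064 for C1qb (interval -7.7e-05 to 0.13). With the receptor genes Itgam (0.089) and C3ar1 (-0.031) and the protease C1ra (-0.20), none of 6 complement genes passed and their median was 0.066.

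Trem2, the lipid-sensing receptor named in the title of the series, did not pass. Its ratio per the authors' deposited table was -0.00074 on the log2 scale (0.0017 after centring), and the interval from 0.950-fold to 1.05-fold bounds the transcript difference. Its adaptor Tyrobp was at 0.037 (interval -0.023 to 0.096), Cd33, an inhibitory lectin of the same pathway, at -0.034 and Grn, the progranulin gene, at -0.13 (interval -0.40 to 0.14) per the authors' deposited table. None of these 4 passed (median -0.017). None of 18 disease-associated microglia genes passed either, 7 of them positive (9 after centring), with a median of -0.0090. Apoe, the lipid carrier of this list, was at 0.13 (interval 0.0031 to 0.25, adjusted p = 0.299).

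Microglial identity genes were split evenly. Of 28 measured, 14 were positive and 14 negative (16 and 12 after centring, median 0.0040), 1 passed, and 25 had an interval wholly within 1.2-fold. The gene past the threshold was Tgfbr1, a TGF-beta receptor, at 0.11 per the authors' deposited table (interval 0.045 to 0.17, adjusted p = 0.0368). Among the 10 defining markers the intervals of 9 lay within 1.2-fold. P2ry12, a purinergic receptor that guides process motility, was at 0.0088 (interval -0.073 to 0.091), Cx3cr1, the fractalkine receptor, at -0.0093 and Csf1r, the survival receptor, at -0.0024 per the authors' deposited table. Tmem119, a surface marker, was measured less precisely, at 0.27 (interval 0.041 to 0.50, adjusted p = 0.210). Mef2a, a transcription factor, was at 0.096 (adjusted p = 0.0597), and Gpr84, a fatty acid receptor listed here, at -0.29 (interval -0.50 to -0.068, adjusted p = 0.147). Of 4 TGF-beta pathway genes, Tgfbr1, counted above, and Pmepa1, a feedback inhibitor of the pathway, passed with a positive ratio, where 4.81% of the panel passed. Pmepa1 was at 0.17 per the authors' deposited table (interval 0.065 to 0.27, adjusted p = 0.0461). The ligand gene Tgfb1 was at -0.047 (interval -0.100 to 0.0065) and the signal transducer Smad3 at 0.050, and the median of the 4 was 0.080.

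**Figure D2:**
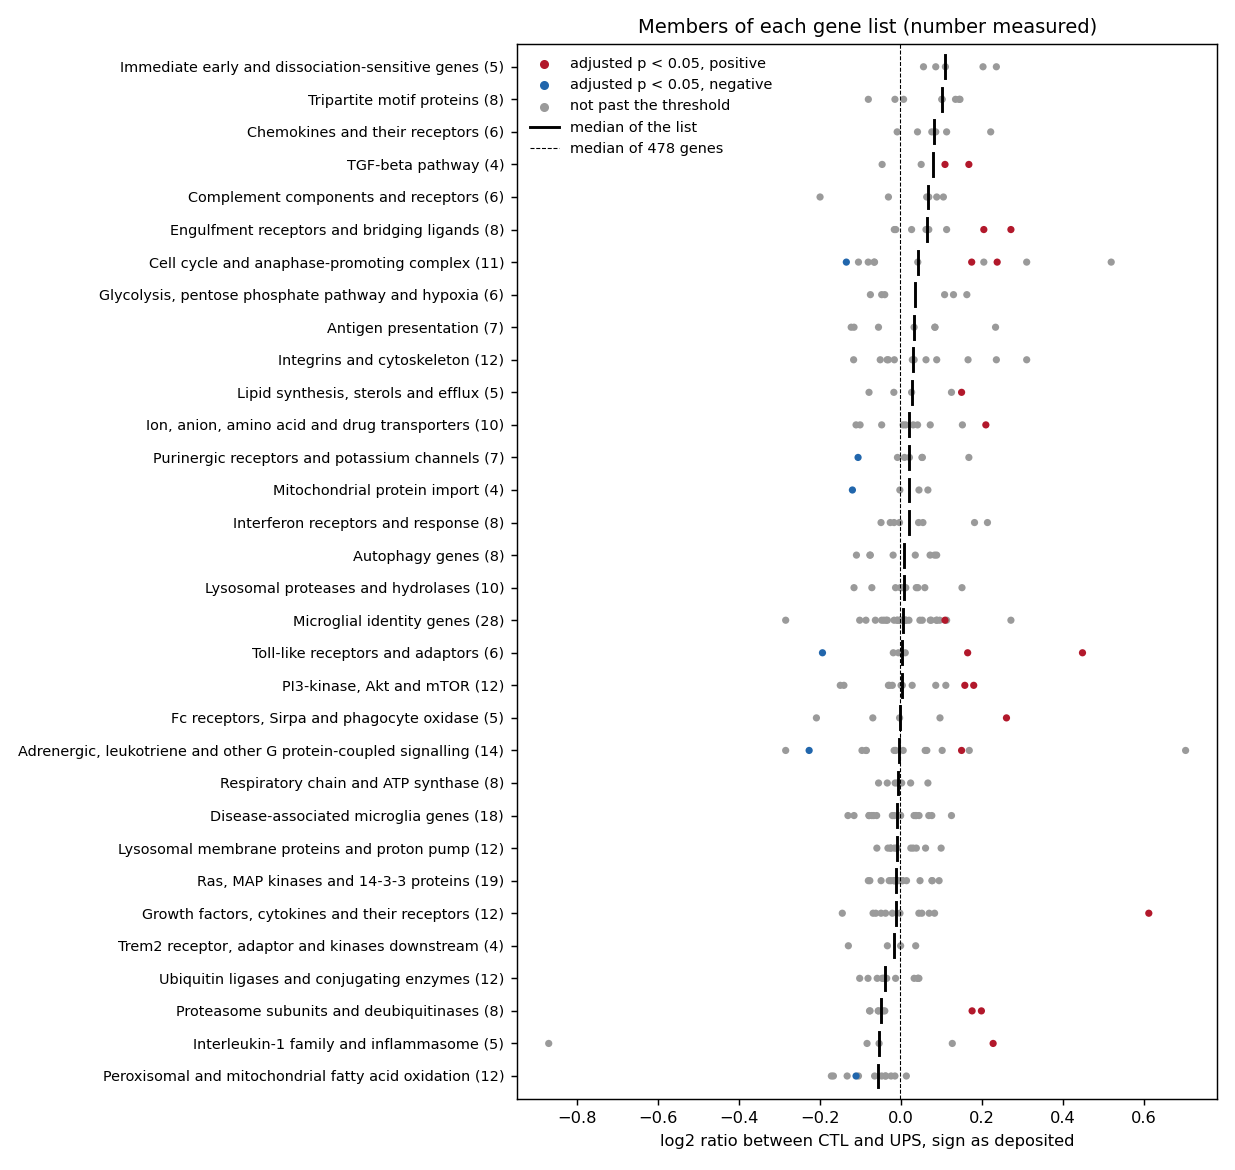
Each row is a gene list with at least 3 measured members (number in brackets), without the lists of markers of other cells, and each point is a member's log2 ratio between CTL and UPS (sign as deposited). Red and blue points passed at an adjusted p below 0.05, the short bar is the list's median and the dashed line the median of all 478 genes, and every median plotted lies between -0.056 and 0.11.

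The lists were written when earlier results of these data were known, so their counts describe the panel and are not independent evidence. All 23 genes past the threshold belong to at least 1 list, as do 271 of the 478 panel genes, and 19 of the 42 lists hold a gene past it. Each list's count past the threshold is to be read beside the 4.81% of the panel that passed. A list's count of intervals within 1.2-fold is to be read beside the panel's 78.5%. Among lists with at least 3 measured members, leaving out markers of other cells, the immediate early genes had the highest median, 0.11. The peroxisomal and fatty acid oxidation genes had the lowest, -0.056. An unadjusted p below 0.05 was found for 16.3% of the panel. Among such lists without a gene past the threshold by the adjusted p, the complement list held 3 of 6 genes at that p. The cytoskeleton list held 3 of 12, with Itgam in both, and the ubiquitin ligases 2 of 12. The antigen presentation, disease-associated, tripartite motif, lysosomal membrane, lysosomal enzyme, autophagy, glycolysis, Ras and immediate early lists, with 5 to 19 measured, held 1 each. The chemokine, interferon, Trem2 and respiration lists, with 4 to 8 measured, held 0.

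Cell cycle genes past the threshold had both signs. E2f3, a transcription factor of cell cycle entry, was at 0.18 per the authors' deposited table (interval 0.10 to 0.25, adjusted p = 0.00171). Cables1, an adaptor of cyclin-dependent kinases, was at 0.24 (interval 0.13 to 0.35, adjusted p = 0.00900). All 4 measured genes of the anaphase-promoting complex, the ubiquitin ligase that ends mitosis, had a negative ratio per the authors' deposited table. Of these Cdc23 passed at -0.14 (interval -0.22 to -0.051, adjusted p = 0.0461), whereas Anapc1 (-0.081), Cdc27 (-0.066) and Anapc7 (-0.11) did not. Mki67, a proliferation marker, was at 0.52 with an interval from -0.18 to 1.22 per the authors' deposited table, which covers both signs. Of 11 cell cycle genes 3 passed (4.81% of the panel), 2 positive and 1 negative, with a median of 0.042.

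In protein turnover, 2 of 8 deubiquitinase and proteasome genes passed, where 4.81% of the panel did (list median -0.050). Both are deubiquitinases with a positive ratio. Usp2, a deubiquitinase whose promoter is shown above, was at 0.20 per the authors' deposited table (interval 0.12 to 0.28, adjusted p = 0.00171), and Stambpl1, another deubiquitinase, at 0.18 (interval 0.083 to 0.27, adjusted p = 0.0199). The other 6 genes of this list are proteasome subunits, none past the threshold. All 6 had a negative ratio per the authors' deposited table, from -0.078 (Psmc6) to -0.040 (Psmc2), where 245 of the 478 panel genes did. The smallest p among the 6 was that of Psmd14 (-0.076, p = 0.0325, adjusted p = 0.268). Psmd14 is itself a deubiquitinase, so the signs do not part deubiquitinases from proteasome subunits. Of 12 ubiquitin ligase and conjugating enzyme genes none passed, 8 were negative and all 12 had intervals within 1.2-fold (median -0.038), with the scaffold Cul1 at -0.10 per the authors' deposited table. Of 8 tripartite motif genes, a family with many ubiquitin ligases, 6 were positive and none passed (median 0.10), led by Trim35 at 0.14 per the authors' deposited table (adjusted p = 0.304).

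Ratios in the list of peroxisomal and fatty acid oxidation genes were mostly negative. Of its 12 genes 11 had a negative ratio, also after centring. The median was -0.056, beside 245 negative ratios among 478 genes and a median of -0.0024. The 11 include Sod1 (-0.037) and Trim37 (-0.015), which are not fatty acid oxidation genes, and Trim37 is also counted among the tripartite motif genes. Some panel genes of acyl-CoA metabolism are outside the list and had both signs, such as Acadsb (0.028), Acat2 (0.025) and Acot13 (-0.014). The share of negative ratios thus depends on how the list was written. Crot, a peroxisomal carnitine acyltransferase, passed at -0.11 per the authors' deposited table (interval -0.18 to -0.044, adjusted p = 0.0461). Acat1, a mitochondrial thiolase, was at -0.17 (interval -0.28 to -0.061, adjusted p = 0.0597) and Acsl4, which activates long-chain fatty acids, at -0.17 (interval -0.29 to -0.046, adjusted p = 0.112) per the authors' deposited table. Slc25a17, a peroxisomal carrier, was at -0.065 (interval -0.13 to 0.0026). Of 4 mitochondrial import genes Tomm70a, a receptor of the outer membrane, passed at -0.12 per the authors' deposited table (interval -0.19 to -0.050, adjusted p = 0.0361), while Hspa9 (0.067), Tomm20 (0.045) and Samm50 (-0.0027) did not, and the list median was 0.021.

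Respiration and sugar metabolism held no gene past the threshold. None of 8 genes of the respiration list passed, all 8 intervals lay within 1.2-fold, and the median was -0.0066. Beside respiratory chain and ATP synthase genes, this list holds the carriers Slc25a12 and Slc25a4, the creatine kinase gene Ckb and the mitochondrial fusion gene Opa1. None of 6 glycolysis and hypoxia genes passed (median 0.034), with Pdha1, a pyruvate dehydrogenase subunit, at 0.13 per the authors' deposited table (p = 0.0418, adjusted p = 0.297). Of 5 lipid synthesis and efflux genes 1 passed (median 0.026), Dagla, the lipase that makes the endocannabinoid 2-AG, at 0.15 per the authors' deposited table (interval 0.061 to 0.24, adjusted p = 0.0380). Abca1, a cholesterol exporter, was at 0.026 and Lpl, lipoprotein lipase, at -0.079 (interval -0.34 to 0.19).

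The lysosomal and autophagy lists held no gene past the threshold, and 78.5% of the panel had intervals within 1.2-fold. None of 12 lysosomal membrane and proton pump genes passed, and all 12 had intervals within 1.2-fold, with a median of -0.010. The widest ratio among them was that of the pump subunit Atp6v1g1, at 0.099 per the authors' deposited table (interval -0.0025 to 0.20). Of 10 lysosomal protease and hydrolase genes none passed and 9 had intervals within 1.2-fold (median 0.0072). Of 8 autophagy genes none passed (median 0.0081) and all 8 had intervals within 1.2-fold. Atg5, needed to form autophagosomes, had the smallest p of the autophagy genes, with -0.11 per the authors' deposited table (interval -0.18 to -0.037, adjusted p = 0.0645).

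Among kinase signalling genes, 2 PI3-kinase subunits passed out of a list of 12, where 4.81% of the panel did. Pik3cb, a catalytic subunit, was at 0.18 (interval 0.084 to 0.28, adjusted p = 0.0199) and Pik3r1, the regulatory subunit shared by several receptors, at 0.16 (interval 0.068 to 0.25, adjusted p = 0.0310) per the authors' deposited table. The downstream kinases Akt1 (0.028) and Mtor (0.11, interval 0.013 to 0.21) did not pass, nor did the other 8 of the 12 genes of this list, whose median was 0.0019. None of 19 Ras, MAP kinase and 14-3-3 genes passed. All 19 had intervals within 1.2-fold, 12 were negative, and the median was -0.012.

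Ligands and receptors included genes past the threshold of both signs. Kitl, the ligand of the KIT receptor, had the largest ratio past the threshold, 1.53-fold per the authors' deposited table, bounded by 1.24-fold and 1.88-fold (adjusted p = 0.00990). It was the only one of the 12 growth factor and cytokine genes past the threshold (list median -0.012), and Stat3, a transducer of cytokine receptors, was at 0.070 (adjusted p = 0.169). Adrb1, a beta-adrenergic receptor, had a larger ratio of 1.63 per the authors' deposited table, but its interval ran from 1.18-fold to 2.24-fold and its adjusted p was 0.0597. Cysltr1, a receptor of cysteinyl leukotrienes, passed at -0.23 per the authors' deposited table (interval -0.36 to -0.098, adjusted p = 0.0310). With Dagla it made 2 past the threshold among 14 genes of adrenergic, leukotriene and other G protein-coupled signalling (median -0.0037), where 4.81% of the panel passed. Kcnk13, a potassium channel of microglia, passed at -0.11 (interval -0.17 to -0.041, adjusted p = 0.0461). The other 6 purinergic and potassium channel genes did not (list median 0.021), P2ry6, the UDP receptor of phagocytic microglia, being at 0.17 per the authors' deposited table (interval 0.028 to 0.31, adjusted p = 0.210). Of 10 transporter genes Slc1a3, a glutamate transporter, passed at 0.21 (interval 0.080 to 0.34, adjusted p = 0.0461), and the list median was 0.021.

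Remaining groups held no gene past the threshold. None of 12 integrin and cytoskeleton genes passed (median 0.030), with the kinase Pak1 at -0.12 per the authors' deposited table (adjusted p = 0.226). All 5 immediate early and dissociation-sensitive genes were positive per the authors' deposited table, from Jun at 0.056 to Rhob at 0.24 (interval 0.012 to 0.46), and none of their intervals lay within 1.2-fold. Their part in the other ratios was not tested.

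Markers of cells other than microglia were few on the panel, and 14 were measured, 7 positive and 7 negative with a median of -0.0071. Slc1a3, also a marker of astrocytes, and Stab1, also a marker of border macrophages, passed with a positive ratio, while Glul, the other astrocyte gene, was at 0.11 (interval -0.013 to 0.23) and Apoe, the other border macrophage gene, at 0.13. The vascular genes per the authors' deposited table were Cd34, at -0.40 with an adjusted p of 0.0512, and Pecam1, at 0.033. Klrd1, a gene of natural killer cells, was at -0.77 (interval -1.50 to -0.042, adjusted p = 0.294). The 5 oligodendrocyte lineage genes ran from -0.13 (Mag) to 0.27 (Cspg4) with a median of -0.079, and the neuronal gene Gad1 (-0.047) and the neutrophil gene Csf3r (-0.062) lay between. The part of other cells in the results for Slc1a3 and Stab1 was not tested.

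Precision varied widely across the panel. The recovered standard error ran from 0.022 to 0.40 on the log2 scale, with a median of 0.050, at which an interval reaches 1.07-fold to either side. Ordered by standard error, the 120 most precise genes held 5 past the threshold, the next 119 held 8, the next 119 held 9 and the 120 least precise held 1, Kitl. Ratios of at least 1.2-fold were found in 17 genes, 15 of them among the least precise 120, and 3 of the 17 passed (Kitl, Tlr7 and Mertk). Of the other 14 the sizes were large and the intervals wide, as for Cyp2u1, a fatty acid hydroxylase, at -0.45 (interval -0.83 to -0.068) and Serpini1, the protease inhibitor neuroserpin, at -0.37 (interval -0.62 to -0.11) per the authors' deposited table. A p above the threshold did not by itself bound a difference. Of the 455 genes not past the threshold, 366 had an interval within 1.2-fold in both directions, and for 89 the interval left room for more. Over all 478 genes the interval lay within 1.1-fold for 188 (39.3%), within 1.2-fold for 375 (78.5%) and within 1.5-fold for 456 (95.4%).

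**Figure D3:**
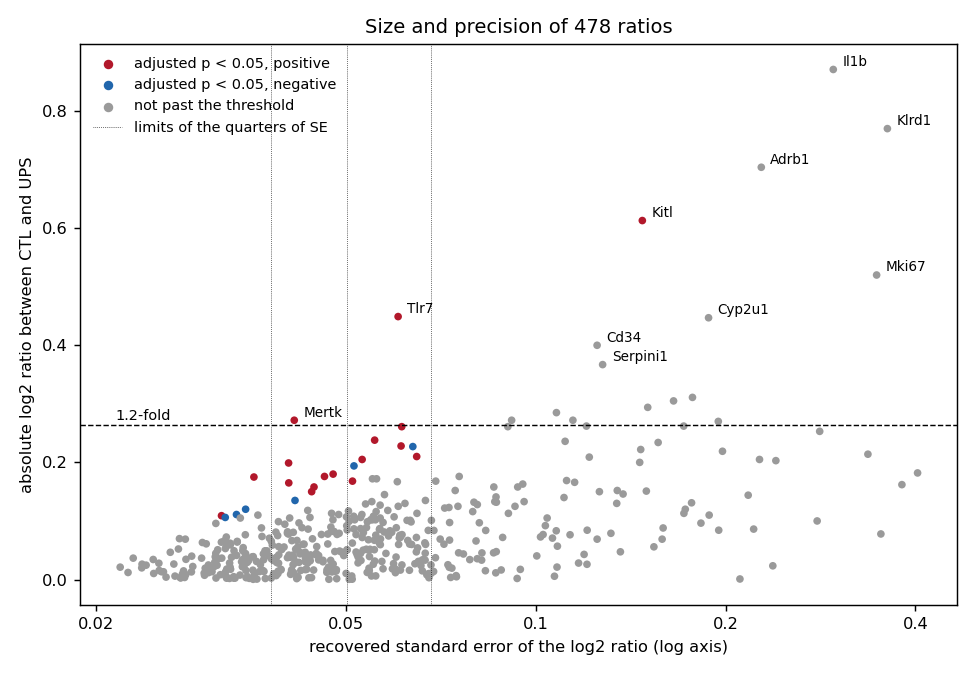
The recovered standard error of each of the 478 log2 ratios between CTL and UPS is on the x axis (log scale), and the absolute log2 ratio on the y axis. Dotted lines part the genes into 4 groups of near-equal size by standard error, the dashed line is 1.2-fold, and of the ratios above it 15 of 17 lie in the least precise group.

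The next question was whether the genes that set UPS apart from CTL also set it apart from LB. The 3 comparisons share libraries, so the values are given side by side. Between LB and UPS 30 genes passed (6.28%) and between CTL and LB none (0%, with 56 genes or 11.7% at an unadjusted p below 0.05). Of the 23 genes past the threshold between CTL and UPS, 17 (73.9%) also passed between LB and UPS, all with the same sign, and they made up 56.7% of the 30. Both comparisons use the same 16 UPS libraries, and the 23 genes were chosen by their p-value between CTL and UPS. The shared calls and signs are therefore partly built in and are not separate evidence. Tlr7 was at 0.45 between CTL and UPS, 0.49 between LB and UPS and -0.043 between CTL and LB per the authors' deposited tables. Mertk had 0.27, 0.25 and 0.020 in that order, and Kitl 0.61, 0.79 and -0.17.

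Between CTL and LB the 23 genes had log2 ratios from -0.17 (Kitl) to 0.062 (Nlrp3), and 2 of them had an unadjusted p below 0.05. These were Cysltr1, at -0.16 per the authors' deposited table (p = 0.0133), and Tgfbr1, at -0.071 (p = 0.0306), neither past the threshold after adjustment. The 6 genes that did not pass between LB and UPS were Stambpl1, Tlr2, Nlrp3, Cysltr1, Pmepa1 and Cdc23. Their adjusted p in that comparison ran from 0.0519 for Stambpl1 (0.14) to 0.639 for Cysltr1 (-0.062), from the authors' deposited p-values. Cysltr1 thus had -0.23 between CTL and UPS and -0.16 between CTL and LB, with its smallest ratio between LB and UPS. Tgfbr1 had its largest ratio between LB and UPS, 0.18 per the authors' deposited table, against 0.11 between CTL and UPS.

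**Figure D4:**
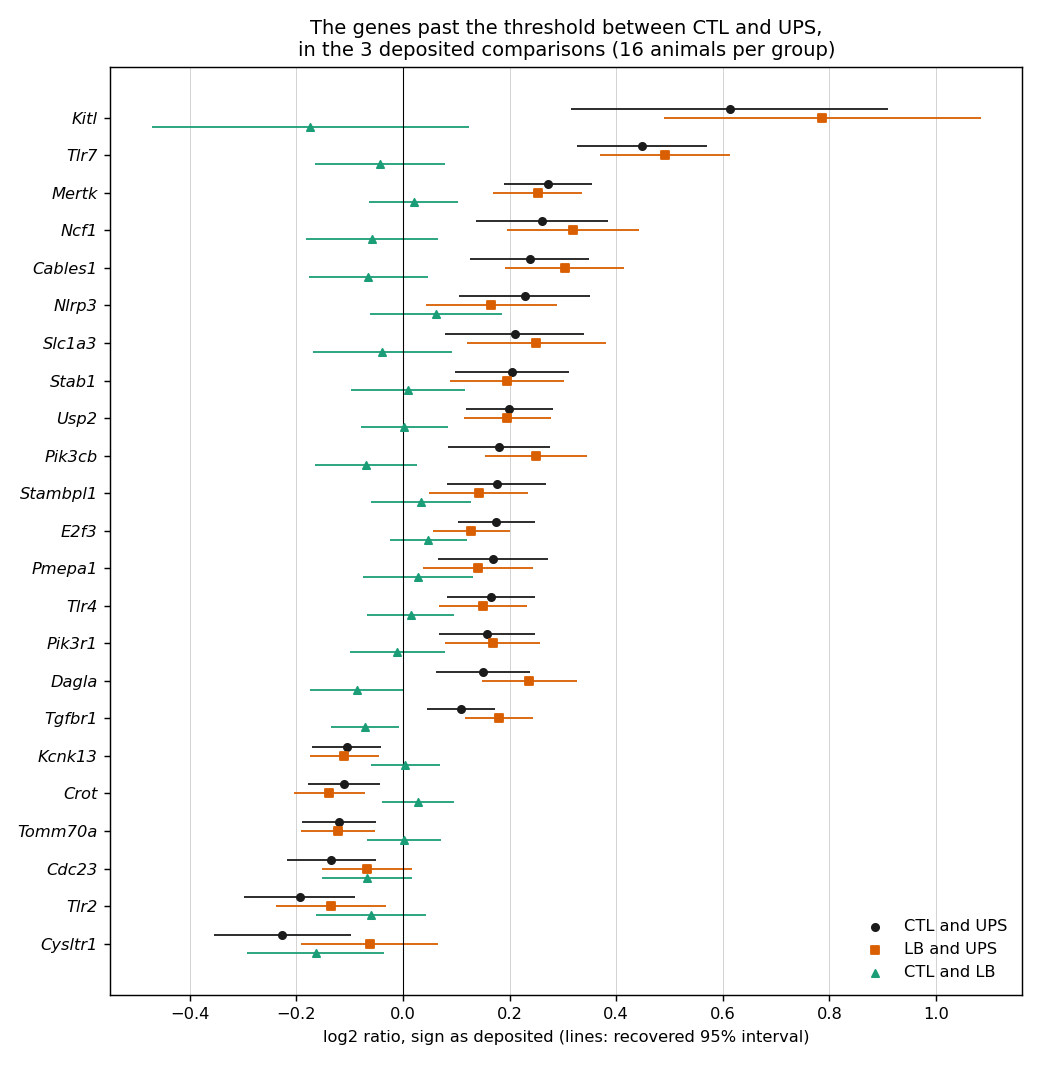
For each of the 23 genes past the threshold between CTL and UPS the log2 ratio of the 3 deposited comparisons is plotted (sign as deposited), with lines for the recovered 95% interval and 16 animals per group. The CTL and LB values lie between -0.17 and 0.062, and the values of CTL and UPS and of LB and UPS lie on the same side of 0 for each gene.

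Cd34, a sialomucin of vascular and progenitor cells, was the gene nearest the threshold without passing it. Its log2 ratio per the authors' deposited tables was -0.40 between CTL and UPS (interval -0.65 to -0.15, adjusted p = 0.0512), -0.42 between CTL and LB (p = 0.00170) and 0.018 between LB and UPS. A further 10 genes had an adjusted p from 0.05 to 0.10, among them C1qc, Acat1, Adrb1, Mef2a, Atg5 and Il1b described above, and of these 11 genes 4 were positive and 7 negative. Il1b had -1.04 between LB and UPS per the authors' deposited table, where it passed (adjusted p = 0.0207), and 0.17 between CTL and LB. C1qc (0.13, adjusted p = 0.00956) and Adrb1 (0.89, adjusted p = 0.00984) also passed between LB and UPS, from the authors' deposited p-values.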

How the data were processed

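Each of 3 deposited tables compares a pair of rearing groups over 478 genes of the nCounter glial panel. Its columns, per the file headers, are the log2 ratio, the linear ratio (fold), the p-value and the p-value adjusted by the authors. The series text states a MANOVA on genes above 20 counts and then nSolver's advanced analysis, with batch as a covariate. How counts were normalized, on which housekeeping genes and with which software version is not given in the sources used here. Library values and their depth were not analysed here.

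No model was refitted. Benjamini-Hochberg adjustment of the authors' deposited p-values ran over 478 genes, with 0.05 as the threshold. The deposited adjusted p column gave the same calls. The standard error was recovered from the table with the largest absolute log2 ratio of each gene, with a t distribution of 42 degrees of freedom (1 model of 48 libraries with rearing and batch). Over the 382 genes compared it differed between tables by a median of 0.145%, against 0.148% to 0.168% for other models of 48 libraries and 0.367% to 0.445% for models of 32. The spread is therefore shared with the LB animals. The implied SD between animals is this error scaled to 16 animals per group. Scripts were tested on simulated data.

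Members are the whole table, and this comparison and the 42 gene lists were chosen with earlier results of these data known. Genes named were those past the threshold, the 10 largest ratios and the 10 smallest adjusted p-values among the rest, up to 4 members with the smallest p of each list with at least 3 measured, and a few fixed microglial genes. Further genes complete a count or a list and were picked with their values in view. A part of the genes under this rule is not reported here. Of the 478 symbols, 476 matched the RefSeq table (GRCm38.p6), 1 matched a synonym and 1 did not match. Promoter sequences came from RefSeq for 360 genes. Alternatives were other adjustments and thresholds, limma's variance moderation, centring, other degrees of freedom and leaving out imprecise genes. Python 3.11.15, SciPy 1.17.1, R 4.3.3 and limma 3.58.1 were used.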

Additional observations from a re-analysis of the deposited data

How the results depend on the processing

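The 23 genes past the threshold between CTL and UPS were 4 with the Benjamini-Yekutieli adjustment (Tlr7, Mertk, Usp2 and E2f3), 5 with Holm's (Cables1 in addition), and 3 when a ratio of at least 1.2-fold was also required. Under the other alternatives run, the count was 18 with 1 adjustment over all 3 tables (15 positive, 3 negative), 20 after centring, 21 after centring with the degrees of freedom of 2 groups, 24 with limma's moderated errors, 26 with these and the degrees of freedom of 2 groups, 26 without the 120 least precise genes, and 34 at a threshold of 0.10. Adjusting the 3 tables together lost Cdc23, Crot, Kcnk13, Pmepa1 and Slc1a3, and centring lost Cdc23, Crot and Kcnk13. Centring turned the sign of Trem2 (adjusted p = 0.989) and Csf1r (adjusted p = 0.999), both with either degrees of freedom, because their ratios lie nearer to 0 than the panel's median. The count of genes with an interval within 1.2-fold was 375, and 342 to 376 under its alternatives. No paired analysis was possible because the tables hold no values per library, and for the same reason leaving out each replicate was not run. Precision is limited by the 16 animals per group, by the 4 to 5 litters per rearing and sex that they came from, and by the unknown depth.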

Other observations

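Of the panel, 207 genes belong to none of the gene lists. None of them passed between CTL and UPS, and 19 had an unadjusted p below 0.05, 7 of these positive and 12 negative, where all 478 genes held 78. The lists were written with earlier results of these data known, so the absence of a call here reflects how the lists were made. Epb41l3, a membrane-cytoskeleton linker, was at -0.27 (interval -0.46 to -0.087, adjusted p = 0.0746) and Cacnb2, a subunit of voltage-gated calcium channels, at -0.26 (interval -0.44 to -0.079, adjusted p = 0.0869) per the authors' deposited table. Serpini1 had an adjusted p of 0.0880 and Cyp2u1 one of 0.210. Adgra2, an adhesion receptor of the vascular Wnt pathway, was at 0.29 with an interval from -0.0094 to 0.60 per the authors' deposited table. Between CTL and LB, Epb41l3 had -0.19 (p = 0.0437) and Serpini1 -0.26 (p = 0.0474) per the authors' deposited table, and neither passed after adjustment.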
